A study of Homo sapiens with 52 samples.

Results

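Human chromosome 7 is described here through the contacts of its 100 kb bins with the nuclear lamina in single KBM7 cells. All bins that the deposited table places on chromosome 7 and that held a value in every cell were taken, which gave 1558 bins of 26584 measured in all. The table lists 1592 bins on chromosome 7, and 34 of them held no value in any cell. Positions are those of the human genome build hg19. This rule uses position and the presence of a value, not the size of any value. It was set with earlier results of these data known.

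The cell line KBM7 was derived from human chronic myeloid leukaemia, and all cells came from clone 14, 1 clone whose labelled ploidy is 2N (diploid). They carried the bacterial methyltransferase Dam fused to Lamin B1, a filament protein of the lamina, and received 0.5 nM Shield1, a ligand that stabilises the fusion, during 15 h. Single cells were sorted from the smallest 2% that carried both Fucci markers, fluorescent reporters of the cell cycle, and 21 PCR extension steps are given in the labels. The labels describe 52 cells in 1 group, and the 51 cells with a column were used. Since the labels name no separate cultures, the cells are treated as 1 sample, no p-value is given, and each SD describes the spread between these cells.

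The nuclear lamina is a protein mesh that lines the inner face of the nuclear envelope. Large stretches of the genome touch it, known as lamina-associated domains. These domains are usually poor in genes, replicate late and hold few active genes. Contact is not the same in every cell, so a domain can lie at the lamina in one cell and inside the nucleus in another. In DamID, adenines in DNA close to the fusion protein become methylated, and the methylated sites are cut, amplified and sequenced. Chromosome 7 carries well-known genes such as CFTR, the chloride channel gene of cystic fibrosis, and the HOXA cluster of developmental regulators. Loss of chromosome 7 or of part of its long arm is a recurrent change in myeloid leukaemia. Genes were not placed in bins, because an hg19 annotation was not used here.

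Each value is the ratio of observed to expected signal (OE) of a bin in a cell, and an OE of 1 or more counts as contact of the bin in that cell. The contact frequency of a bin is the share of the 51 cells in which it was contacted. Of all chromosome 7 values, 45.8% were 0 and 21.5% were at least 2. In narrow bands beside the threshold, 1.45% lay from 0.9 to under 1 and 1.41% from 1 to under 1.1. Larger parts lay from 1.1 to under 2 (11.2%) and above 0 but under 0.9 (18.6%). In shallow cells 1 read moves the OE of most bins by more than the width of these narrow bands. The whole-number reads behind the ratios came to 3786 on chromosome 7 in cell 9, the shallowest, and to 20412 in cell 26, the deepest, and the median was 9922. For a chromosome 7 bin of median expected number, an OE of 1 equals 2.09 reads in cell 9 but 13.0 in cell 26. Calls of single bins in shallow cells therefore rest on few reads.

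The extent of contact along chromosome 7 was compared with that of the other chromosomes. The contacted share was 34.1% ± 4.78 of chromosome 7 bins, against 31.3% ± 3.57 of all other measured bins (SD, n = 51 cells). The difference of 2.82 points ± 3.53 was smaller than its own spread between cells, and chromosome 7 was the higher in 38 of 51 cells. At an OE of at least 2 it was 1.61 points ± 3.67, with chromosome 7 the higher in 33 cells. By mean share, chromosome 7 stood at rank 8 of the 22 single or joined chromosomes that the table names. Cell 39 had the lowest share, 26.2% (95% Wilson interval 24.1% to 28.4%), followed by 27.2% in cell 14 and 27.8% in cell 29. The median was 33.4%. The highest was 44.2% in cell 26 (41.7% to 46.6%), followed by 44.0% in cell 45 and 42.2% in cell 46. These intervals cover counting error over bins only, and neighbouring bins are not independent, so they are too narrow.

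**Figure D1:**
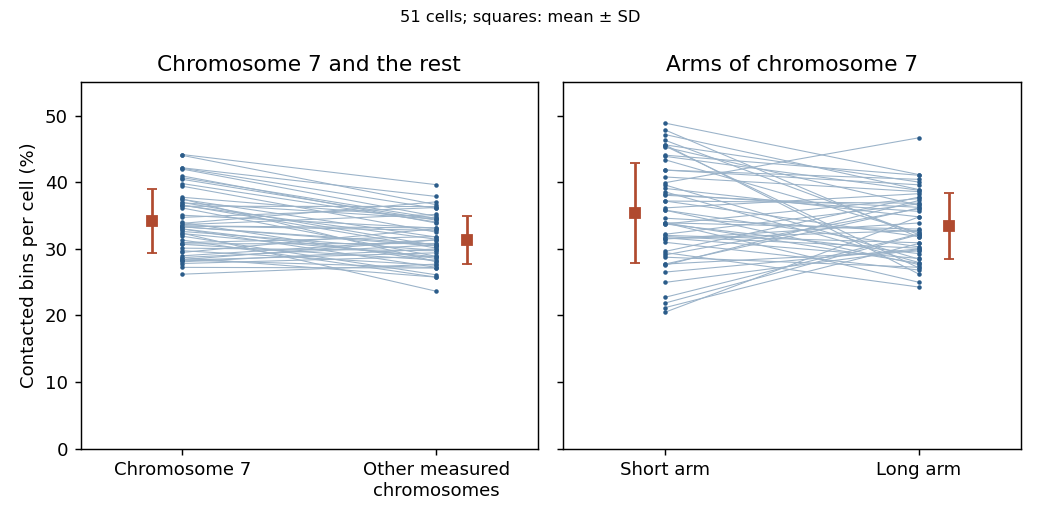
Contacted bins per cell in percent, with 1 line per cell for 51 cells and squares for mean ± SD. On the left, chromosome 7 (34.1%) stands beside all other measured chromosomes (31.3%). On the right, the short arm (35.4%) and the long arm (33.4%) of chromosome 7 have close means, and the lines cross often.

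Cells with more contact elsewhere also had more on chromosome 7. Over the 51 cells, which share 1 clone and differ in depth, the chromosome 7 share correlated with the share of all other bins (Pearson's r = 0.678, or 0.663 without the 2 farthest cells, and Spearman's rho = 0.669). It also correlated with the reads of the cell (r = 0.567, rho = 0.603, r = 0.559 without the 2 farthest). The difference between chromosome 7 and the rest hardly followed reads (r = 0.0562, rho = 0.127). Cell 51 had the highest such difference, with 37.5% on chromosome 7 and 28.1% elsewhere. Cell 42, whose share of the rest of the genome was the lowest of all at 23.6%, had 32.3% on chromosome 7. Cell 35 had the lowest difference, with 29.5% on chromosome 7 and 33.0% elsewhere.

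Chromosomes 6 and 5, the numbered chromosomes nearest in number of measured bins, served for comparison. Chromosome 6 had a share of 36.1% ± 5.75, and chromosome 7 minus chromosome 6 was -1.91 points ± 5.22, below 0 in 34 of 51 cells. Chromosome 5 had 36.9% ± 5.73, and chromosome 7 minus chromosome 5 was -2.78 points ± 6.49, below 0 in 40 of 51 cells. Both differences were smaller than their spread between cells. Cell 42 stood apart on chromosome 5, with a share of 10.2%, and without it the difference was -3.28 points ± 5.49 (n = 50), below 0 in 40 cells. The likeness of the contact calls of any pair of cells, as the phi coefficient, averaged 0.616 on chromosome 7 (SD 0.0643 over 1275 pairs, range 0.402 to 0.773), 0.660 on chromosome 6 and 0.632 on chromosome 5. Pairs share cells and are not independent. Cell 10 was the least like the others on chromosome 7, with a mean phi of 0.514, and cell 23 the most like them, with 0.678. Cell 10 had 78262 reads and cell 23 had 220890, and the part of depth in this likeness was not tested.

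Lamina contact is known to be scarce where genes are dense. RefSeq lists 938 protein-coding genes on chromosome 7 (assembly GRCh38.p14, used for counts per chromosome only), or 5.89 per Mb of the 159.2 Mb in the table. Among 19 whole chromosomes, this was the 11th lowest gene density, and the contact share of chromosome 7 was the 8th highest. Over these 19 chromosomes, contact share and gene density had a rank correlation (Spearman's rho) of -0.635 and a Pearson's r of -0.827, or -0.627 without the 2 farthest chromosomes. The points share the same cells and differ in length, and the values are given as a description.

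Most bins of chromosome 7 were contacted in very few cells or in nearly all. The bins without contact in any cell numbered 527 (33.8%), against 38.7% of all measured bins. Among them were 108 with no read at all, so their expected number is unknown. For the other 419, contact in 0 of 51 cells still allows 5.88% of cells (3 counts of 51), a limit that covers counting error only. At most 5% of cells had contact in 644 bins (41.3%), against 46.7% over all bins. At least 80% of cells had contact in 344 bins (22.1%), against 20.9% over all bins, and at least 90% in 216 bins (13.9%), against 12.8%. Between these, 398 bins (25.5%) lay above 20% and under 80%, against 22.1% over all bins. All of these shares lay near the background. At an OE of at least 2, the bins with contact in 80% of cells or more numbered 99 (6.35%), against 4.24% over all bins.

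**Figure D2:**
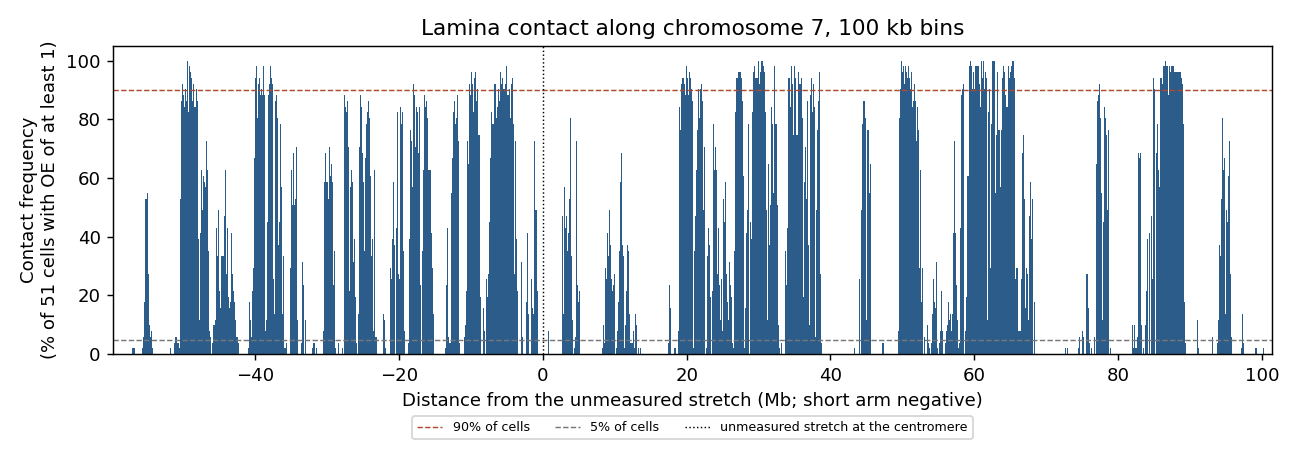
Contact frequency of each measured 100 kb bin of chromosome 7, in percent of 51 cells with an OE of at least 1, against distance in Mb from the longest unmeasured stretch, with the short arm at negative distances. Blocks of frequent contact alternate with long empty stretches, both ends are almost empty, and blocks at or above the dashed line of 90% are more common on the long arm.

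Every cell had contact in 21 bins (1.35%), against 0.824% over all bins. Chromosome 6 had 1.55% of such bins and chromosome 5 had 0.510%. Of the 21 bins of chromosome 7, 2 lay on the short arm (0.344% of its bins) and 19 on the long arm (1.94%). The longest stretch of them covered 4 bins from 121300001 to 121700000, with a mean OE of 3.64 and a lowest OE of 1.17 in any cell. The other stretches held 1 or 2 bins. Among them were the bins from 120000001 to 120200000 (mean OE 3.83), from 124100001 to 124300000 (3.67), and from 145300001 to 145500000 (3.46). On the short arm they were the bins from 9300001 to 9400000 (2.98) and from 54300001 to 54400000 (2.35). Contact in all 51 cells does not show that the OE was far from the threshold, since the lowest value in these bins was 1.02.

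The 5 longest runs of bins with contact in 90% of cells or more lay on the long arm. There were 63 such runs on the chromosome, of which 29 were a single bin and 6 reached 1 Mb. The longest covered 1.9 Mb from 145900001 to 147800000. In a cell, on average 96.3% ± 9.19 of its 19 bins were contacted (SD, n = 51, as for the regions that follow), with a lowest value of 47.4% in cell 52 and a median of 100%. In 38 cells the whole region was in contact. A single bin contacted in 45 cells separated it from the region from 144600001 to 145800000, which was contacted in 96.6% ± 8.02 and as a whole in 40 cells. With that bin, these 2 regions span 3.2 Mb of near-constant contact.

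In the region from 108400001 to 110100000 the share was 95.2% ± 12.2, and its lowest value, 29.4% in cell 48, was the lowest of any cell in the 5 regions. The region from 118000001 to 119600000 was contacted in 96.1% ± 7.70, from 68.8% in cell 3 to 100%. The region from 88200001 to 89700000 was contacted in 96.7% ± 7.59, from 66.7% in cell 41 to 100%, and as a whole in 41 cells. Every cell had some contact in each of these 5 regions. The regions were chosen by contact frequency in these same cells, so mean shares of at least 90% follow from the choice. Their mean OE lay between 3.11 and 3.28. Their contacted shares were 89.7% to 93.0% with every cell thinned to 50978 reads, and 77.3% to 81.1% at an OE of at least 2.

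Long stretches of chromosome 7 were almost free of contact. The longest such stretch, made of bins contacted in 5% of cells or fewer, spanned 6.2 Mb of the long arm from 127200001 to 133400000. Its 62 bins were contacted in 0.190% ± 0.949 (SD, n = 51), 48 cells had no contact in it, and the highest value was 6.45% in cell 26. The region from 97500001 to 102800000, of 5.3 Mb, had a share of 0.111% ± 0.448, and 48 cells had none. In the region from 104500001 to 108200000 the share was 0.265% ± 0.812, and 46 cells had none. On the short arm, the region from 1 to 3200000 was contacted in 0.306% ± 2.19. All of that came from cell 30, with 15.6% of the region, and the other 50 cells had none. The region from 4500001 to 7700000 was contacted in 0.245% ± 1.05, with the highest value, 6.25%, again in cell 30. Each of these 5 regions included bins without any read, from 2 to 13. They were chosen by rare contact in these same cells, so mean shares of at most 5% follow from the choice. Runs of this kind had a mean of 0.805 Mb over 80 runs, against 0.343 Mb over the 63 runs of frequent contact. The 2 classes held 644 and 216 bins, so their limits were not alike. With a limit of 80% of cells, runs of frequent contact had a mean of 0.546 Mb. The size of this difference therefore depends on the limits.

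Regions of intermediate frequency showed how cells differed. The longest run of bins each contacted in 20% to 80% of cells covered 1.5 Mb of the short arm from 28400001 to 29900000. It was contacted in 55.7% ± 33.0 of its bins (SD, n = 51), from 0% in 5 cells to 100% in 2 cells. At least 80% of it was contacted in 18 cells and at most 20% in 14 cells, and the other 19 lay between. With an OE limit of 2, the contacted share of the region was 25.2% ± 26.1. In the region from 67400001 to 68800000 the share was 33.2% ± 29.1, from none in 9 cells, with a median of 28.6%, to 92.9% in cell 5. At an OE of at least 2 it was 9.10% ± 15.8. Its neighbouring bins were contacted in 2 and 4 cells, but it was not an isolated patch. Within 1 Mb to its right lay bins contacted in more cells than any bin of the region, which reached 25 cells at most.

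The region from 23700001 to 24600000 was contacted in 56.2% ± 33.0, with none in 6 cells and all of it in 7. Contact there moved with depth, with a mean of 73.3% in the 25 cells of more than median reads and 39.7% in the other 26, and the part of depth in its spread was not tested. After thinning to 50978 reads it stood at 51.2% ± 28.0. In the other regions of this class the deeper cells were also the higher. Their means were 64.8% against 46.9% from 28400001 to 29900000, and 37.7% against 28.8% from 67400001 to 68800000. They were 50.2% against 42.7% from 61700001 to 62600000, and 57.5% against 50.0% from 11100001 to 11900000. The region from 11100001 to 11900000 was contacted in 53.7% ± 33.7, with none in 8 cells and all of it in 7. It bordered a bin contacted in 44 cells. The region from 61700001 to 62600000, beside the centromere, was contacted in 46.4% ± 21.7. Its bins had a median expected number of 50, against 311.5 over chromosome 7, so 1 read gives a large OE there, and it stood at 30.9% after thinning. The 5 regions of intermediate frequency had shares of 9.10% to 29.0% at an OE of at least 2, against 33.2% to 56.2% at an OE of at least 1.

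**Figure D3:**
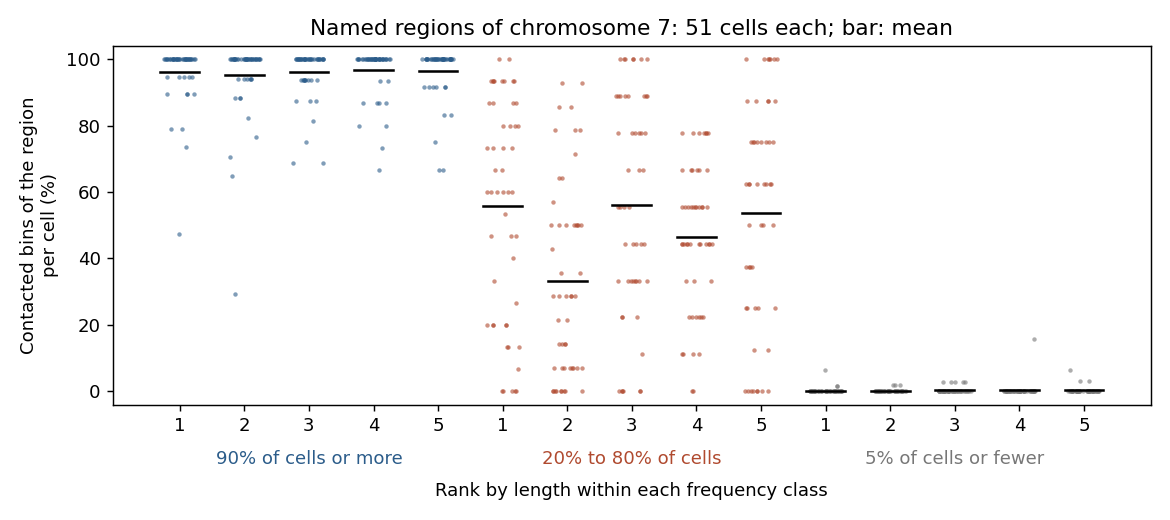
Share of each region's bins contacted, in percent, with 1 point per cell for 51 cells and a bar at the mean, for the 5 longest runs of each frequency class on chromosome 7, ranked by length. Regions contacted in 90% of cells or more cluster at 100%, those of 20% to 80% spread from 0% up to between 77.8% and 100%, and those of 5% or fewer stay near 0% apart from single cells.

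Borders between contact and its absence could be as narrow as a bin. Among neighbouring bins that both held reads, the largest step in contact frequency lay at 31200000, where 45 cells (88.2%) had contact in the bin to its right and 0 in the bin to its left. At 79700000, 44 cells had contact on the left and 1 on the right. At 120600000 the numbers were 46 on the left and 6 on the right, at 21900000 they were 41 and 3, and at 108300000 they were 41 on the right and 4 on the left. At each of these 5 borders no cell had contact only on the side of lower frequency. A larger step, of 90.2 points at 143900000, ran from a bin contacted in 46 cells to a bin without a read in any cell, so the frequency of that bin rests on no reads. Steps of at least 50 points made up 49 of 1551 pairs of neighbouring bins on chromosome 7 (3.16%), against 1.90% on the other chromosomes.

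Contact was next summed in 5 Mb windows counted from position 1. The highest was the window from 120000001 to 125000000 on the long arm, with 78.2% ± 10.9 (SD, n = 51), from 50.0% in cell 30 to 96.0% in cell 26. In this window 34 of 50 bins had contact in 80% of cells or more, and every bin was contacted in some cell. The window from 85000001 to 90000000 followed with 69.9% ± 9.71, and the window from 50000001 to 55000000, the highest of the short arm, with 66.5% ± 13.3. The lowest was the last window of the long arm, from 155000001 to 159200000, with 0.794% ± 2.06, and 41 cells had no contact in it. The window from 130000001 to 135000000 had 3.02% ± 4.64, with none in 25 cells and 22.0% in cell 26. The window from 70000001 to 75000000 had 6.42% ± 6.65, and 14 of its 47 bins held no read in any cell.

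**Figure D4:**
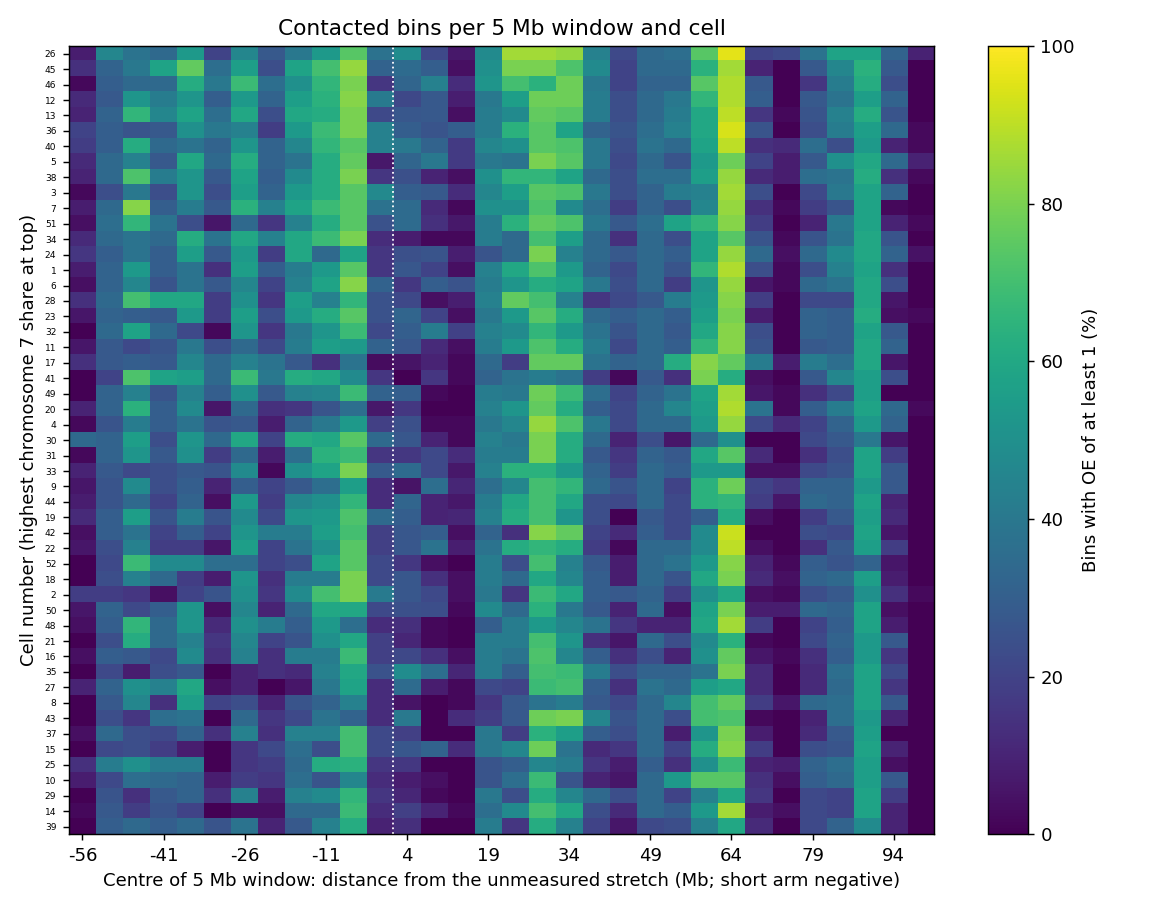
Share of contacted bins, in percent by colour, for each of 32 windows of 5 Mb along chromosome 7 (columns, by distance in Mb from the longest unmeasured stretch, dotted line) in each of 51 cells (rows, highest chromosome 7 share at the top). Bands of high contact at 29 and 64 Mb and of low contact at 74 and 99 Mb run through nearly all cells, while windows of the short arm vary more from cell to cell.

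The arms were compared by splitting the chromosome at its longest inner stretch without values, from 58100001 to 59500000, which lies in the centromere region. The short arm had contact in 35.4% ± 7.49 of its 581 bins, against 33.4% ± 4.94 of the 977 bins of the long arm (SD, n = 51). Over cells the short arm ran from 20.5% in cell 35, with a median of 34.6%, to 48.9% in cell 45, and the long arm from 24.3% in cell 39, with a median of 32.5%, to 46.7% in cell 26. These ranges overlap almost fully. The difference of 2.04 points ± 7.57 was smaller than its spread, and the short arm was the higher in 34 of 51 cells. Its sign was not stable, since it was -1.07 points at an OE of at least 2 and -0.274 points over bins with an expected number of at least 100. The arms of a cell differed by up to 19.4 points, in cell 30 with the short arm higher, and by -14.3 points in cell 35.

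The arms differed in their bins of most frequent contact, and this depended on the limit chosen. Bins with contact in 80% of cells or more made up 21.2% of the short arm, against 22.6% of the long arm, and the shares were close. With a limit of 90% they were 8.43% of the short arm, against 17.1% of the long arm, and over bins with an expected number of at least 100 they were 8.97% and 19.6%. Bins above 20% and under 80% made up 30.5% of the short arm and 22.6% of the long arm. A like pattern held for windows of 5 Mb that had 50 measured bins. The SD over cells had a median of 13.2 points in the 11 windows of the short arm, against 9.71 points in the 17 windows of the long arm. Limited to windows with a mean contact of 20% to 60%, where the SD can be large, it was 13.3 points in 8 windows and 8.77 points in 10. Neighbouring windows are not independent, and these medians have no test.

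The arms varied largely apart from each other. Over 51 cells their shares correlated with r = 0.315 (rho = 0.320, r = 0.300 without the 2 farthest cells). After the share of the rest of the genome was subtracted in each cell, r was 0.0343 (rho = 0.0888). Cell 14, among the 3 cells of lowest share, had 21.2% on the short arm and 30.8% on the long arm, and its largest shortfall was in the window from 30000001 to 35000000, with 4.00% against a mean of 44.1%. In the window from 120000001 to 125000000 the same cell had 86.0%, above the mean of 78.2%. Cell 35 had 8.00% in the window from 10000001 to 15000000, against a mean of 43.3%, and 48.6% in the window from 60000001 to 65000000, against 24.3%. Cell 26, the highest, lay above the mean of the cells in 29 of 32 windows and cell 39, the lowest, in 3.

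Both ends of chromosome 7 were low in contact. The outer 5 Mb on both sides were contacted in 5.33% ± 3.99, against 36.1% ± 4.98 of the other bins, and the difference of -30.8 points ± 4.79 had this direction in all 51 cells (SD, n = 51). Over cells the ends ran from 0% to 17.0% in cell 30, with a median of 5.00%, and the other bins from 27.9% to 46.4%, with a median of 35.3%, so the ranges do not overlap. The end of the short arm had 7.14% ± 6.84, and the end of the long arm 3.53% ± 3.41. Contact was not evenly spread within these ends. The region from 1 to 3200000 had 0.306%, and the window from 155000001 to 159200000 had 0.794%. Most contact of both ends lay farther in, in a few bins of intermediate frequency. The highest value at the short arm's end was 34.0% in cell 30. The outermost 1 Mb held no contact in any cell on the short arm, and on the long arm only in cell 26.

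The bins beside the centromere were less uniform. The 5 Mb on the short arm side were contacted in 46.9% ± 10.4 and those on the long arm side in 27.5% ± 12.5, a difference of 19.4 points ± 11.2 that had this direction in 48 of 51 cells. Only 33 bins could be measured on the long arm side, because further unmeasured bins lie between 59600001 and 61500000. When all unmeasured bins from 58100001 to 61500000 were taken as the landmark, the long arm side stood at 17.4% ± 8.01 and the difference at 29.5 points ± 9.17, in the same direction in 50 cells. Within 2 Mb of that wider landmark the order was turned, with 25.9% ± 13.0 on the short arm side and 37.8% ± 15.2 on the long arm side. The bins on the long arm side include those of low expected number described above. Within 2 Mb, the short arm side also holds bins of low expected number, down to 11, and bins without a read. Both sides together differed from the rest of the chromosome by 5.29 points ± 9.02, and the sign depended on the landmark and width, with -2.21 points for the wider landmark and -10.2 points for 2 Mb beside the narrower.

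In single cells, contact came in runs of neighbouring bins. The 5682 runs on chromosome 7 had a mean length of 0.477 Mb, against 0.534 Mb on the other chromosomes. Of these runs, 37.2% were a single bin and 13.0% reached 1 Mb, and the longer ones held 50.5% of all contacted bins, against 57.4% on the other chromosomes. Per cell the mean length was 0.483 Mb ± 0.0819 (SD, n = 51), and it moved with reads (r = 0.673, rho = 0.742, r = 0.705 without the 2 farthest cells). After thinning to 50978 reads it was 0.380 Mb. The longest run covered 5.2 Mb from 117800001 to 123000000 in cell 45, followed by 4.2 Mb from 87600001 to 91800000 in cell 26. In 27 of 51 cells the longest run was centred between 145000001 and 150000000, the window with the longest region of near-constant contact, and in 11 cells between 50000001 and 55000000.

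Whether separate bins touched the lamina in the same cells was described with the 398 bins of intermediate frequency. Adjacent bins had a mean Pearson's r of contact over 51 cells of 0.417, which fell to 0.237 at 1 Mb, 0.138 at 5 Mb, 0.0935 at 10 Mb and 0.0348 at 50 Mb. Bins of chromosome 7 and bins of other chromosomes had a mean r of 0.0374, so at 50 Mb the value was no higher than between chromosomes. All bins share the cells and their depth, and with the share of the whole genome subtracted in each cell the value at 50 Mb was 0.0154. Chromosome 6 had 0.0836 and chromosome 5 had 0.0502 at 50 Mb without that step. After it, chromosome 7 bins 20 to 50 Mb apart had a mean r of 0.0420 when both lay on the short arm, 0.0563 when both lay on the long arm, and 0.0226 when they lay on different arms. The same measure was 0.0143 between chromosome 7 and other chromosomes. Pairs on the same arm and on different arms were not matched for distance within 20 to 50 Mb. After the same step r fell from 0.0725 at 10 Mb to 0.0154 at 50 Mb, so arm and distance cannot be told apart here.

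**Figure D5:**
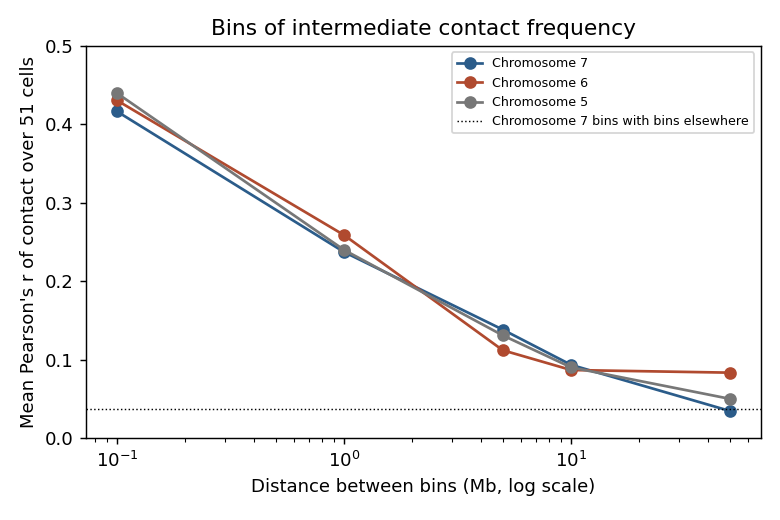
Mean Pearson's r of contact over 51 cells between bins of intermediate frequency, against the distance between the bins in Mb on a log scale, for chromosomes 7, 6 and 5. The lines fall together up to 10 Mb, and at 50 Mb chromosome 7 (0.0348) lies at the dotted level of its bins with bins of other chromosomes (0.0374).

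Windows of 5 Mb were compared in the same way. All 31 pairs of neighbouring windows correlated above 0, with a mean r of 0.442 and a range of 0.168 to 0.675. The 465 pairs that were not neighbours had a mean r of 0.160, from -0.308 to 0.717. The highest of these joined the windows from 30000001 to 35000000 and from 40000001 to 45000000 on the short arm (rho = 0.736, r = 0.704 without the 2 farthest cells). The next joined the arms, from 50000001 to 55000000 and from 75000001 to 80000000, with r = 0.631 and rho = 0.501. The lowest joined the windows from 50000001 to 55000000 and from 115000001 to 120000000, with r = -0.308 and rho = -0.140. These pairs are the extremes of 465 and are given as a description. All windows share the cells and their depth. With the genome's share subtracted in each cell, r was 0.690 for the highest pair and 0.608 for the next. For the pair named as lowest it was then -0.356. Between the windows from 45000001 to 50000000 and from 125000001 to 130000000 it was -0.404, so which pair is lowest depends on this step.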

How the data were processed

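Contacts were measured by DamID in 51 single cells of 1 group. The authors deposited, for each cell and 100 kb bin, a ratio (observed over expected). The submitters' processing notes name Cutadapt, Bowtie2 2.1.0 and hg19. What the expected value was made from is not given in the sources used here. Cell 47 was not analysed here.

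Each ratio above 0 was resolved into whole reads, a factor of the cell and a whole expected number of the bin. All (100%) were whole within 0.02 reads, and the step, tested on simulated data, recovered 99.999% over 24599 bins. For each bin the step picks the unit that makes its values whole, so the first value was in part fixed in advance. The simulated data were made with the same model. Neither value shows that the numbers are right in bins with few reads. Reads per cell ranged from 50978 to 316463. Bins without a value in any cell were left out. Contact was an OE of at least 1.

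The members, lists and tests were chosen with earlier results of these data known. Named were the 5 longest runs in each frequency class, the 3 highest and 3 lowest windows and cells, and the 5 largest borders. Windows needed at least 20 measured bins. The longest unmeasured stretch was tied in length with the next, from 59600001 to 61000000, and the first was used. Correlations over distances of 5 Mb or more used pairs within 0.5 Mb of the distance. With 1 sample no test was run. Alternatives were an OE of at least 0.5 or 2, cells thinned to the shallowest, a minimum expected number of 100, other widths and landmarks, and cells left out. Gene lists set beforehand were not used, since hg19 positions were not at hand. Python 3.11.15, numpy 2.4.6, pandas 2.3.3 and scipy 1.17.1 were used.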

Additional observations from a re-analysis of the deposited data

How the results depend on the processing

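Of 145 values under alternatives, 118 kept their direction within 1 SD over cells (counts and correlations within 1.5 times), 22 moved by more and 5 changed sign. Where the SD is wide, a large move still counts as kept. The region from 28400001 to 29900000 is such a case, with 55.7% ± 33.0, but 25.2% at an OE of at least 2. Some alternatives could not change a value, such as the 344 frequent bins when bins without a read were left out. The 118 is therefore no measure of stability. Added after seeing the data were the wider centromere landmark, the borders between bins with reads and the arms at a minimum expected number. Also added were the subtraction of the genome's share, the omission of the cell lowest on chromosome 6 or 5 and the omission of cell 26. At an OE of at least 0.5, chromosome 7 had contact in 42.4%, ends differed by -35.8 points and runs had a mean of 0.593 Mb. At an OE of at least 2 these values were 21.5%, -20.8 points and 0.311 Mb, bins with contact in 80% of cells or more numbered 99 in place of 344, and the short arm minus the long arm was -1.07 points. That difference was -0.274 points over bins with an expected number of at least 100. Ends of 10 Mb differed by -23.3 points. Flanks of the centromere differed by -10.2 points at 2 Mb, by -2.21 points with the wider landmark and by 0.943 points in thinned cells. Runs in thinned cells had a mean of 0.380 Mb. With each cell's chromosome 7 share subtracted, the correlation was 0.0544 at 10 Mb and -0.005 at 50 Mb. Shifts in share follow from the threshold itself, and for the other changes the cause was not tested. Cell 26, the deepest, had the largest part of its chromosome 7 reads in bins contacted in 5% of cells or fewer (5.55%). Whether these reads are background was not tested. Without cell 26, chromosome 7 had contact in 33.9%. Depth limits calls most in cell 9, with 2.09 reads at an OE of 1. No paired analysis was possible because the labels give only 1 group, so no replicate numbers are shared between groups, and the differences between parts of the genome were instead taken within each cell.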

Other observations

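Chromosome 7 took up a varying part of each cell's reads. Its bins held 6.40% ± 0.895 of the reads of a cell (SD, n = 51), while they made up 5.72% of the summed expected numbers and 5.86% of the measured bins. The lowest part was 4.78% in cell 39, the cell with the lowest contact share of the chromosome. The highest was 9.01% in cell 51, the cell in which chromosome 7 exceeded the rest of the genome by most. The median OE of contacted chromosome 7 bins in cell 51 was 3.17, the highest of all cells and 0.671 above that of its other contacted bins. Contact shares and OE come from these same reads, so these measures are not independent. Over all cells the median OE of contacted bins was 2.47 ± 0.307 on chromosome 7 and 2.47 ± 0.213 elsewhere. Whether cells differed in their copies of chromosome 7 was not tested.

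The bins that 5% of cells or fewer contacted held 1.70% ± 0.956 of a cell's chromosome 7 reads, from 0.487% in cell 29 to 5.55% in cell 26. Over cells this part correlated with the chromosome 7 share (r = 0.557, rho = 0.550, r = 0.520 without the 2 farthest cells). Both measures come from the same cells, and the calls also picked the bins.

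The bins inside the wider centromere landmark rest on very few reads. The bin from 59500001 to 59600000 had an expected number of 2 and was contacted in 4 cells, with at most 1 read in any cell. The bin from 61000001 to 61100000 had an expected number of 13 and was contacted in 15 cells.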
